A study of Mus musculus with 26 samples.

Results

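The gene segments of the immunoglobulin heavy chain locus (Igh, mouse chromosome 12) were followed in polyadenylated RNA of cultured pro-B cells with and without Brg1, a chromatin remodelling ATPase of the BAF complex that Smarca4 encodes. Members were taken by name: every gene called Ighv, Ighd or Ighj, and the constant-region genes Ighm, Ighd, Ighe, Igha and Ighg. This gave 79 of the 21277 genes listed over both experiments. The Brg1 deletion table listed 77 of them among 19404 genes, namely 67 variable (V) segments, 4 joining (J) segments and 6 constant-region genes. The Brg1 knockdown table listed 18 among 19719 genes, namely 9 V segments, 4 J segments and 5 constant-region genes, and 16 members were in both tables.

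An immunoglobulin heavy chain gene is assembled in pro-B cells by the RAG recombinase, which first joins a D to a J segment and then a V segment to the DJ join. The V segments lie in a long cluster upstream of the D, J and constant segments, and those at its far end are known to need contraction of the locus, with Pax5, YY1 and CTCF among the factors involved, to be used. Unrearranged V, J and constant segments are also transcribed, as germline or sterile transcripts, before they take part in recombination or class switching. An RNA read on a V segment can therefore come from a rearranged gene or from a germline transcript.

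All cells were B220+ bone marrow cells of C57/Bl6 mice, grown for 7 days with the cytokines IL7 and SCF. In the deletion experiment, controls were Brg1+/+ and the Brg1-deleted group was Brg1F/F. Both carried ER-Cre, a Cre recombinase that tamoxifen activates, and both were kept in 0.3 µM tamoxifen over the final 60 hours, with 2 libraries per group. In the knockdown experiment all cells were Rag1-/-, so that they could not rearrange the locus. On days 3 and 4 they were given a retrovirus with a control hairpin (Ctrl-sh) or a hairpin against Brg1 (Brg1-sh), and then enriched with hCD25 magnetic beads, in 3 libraries per group. The labels do not tie the libraries to separate mice, so p-values measure only the spread between these samples, which may be technical.

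Each table gives 1 mean per group in normalized reads (reads divided by library size factors), from which the whole reads of each library were recovered where only 1 solution fitted. Library depths were 8696324 to 11705566 reads for deletion and 5201377 to 11050887 for knockdown. Libraries recovered in this way have no number and are called deeper or shallower within their group. In the authors' deposited table Smarca4 fell 2.95-fold after deletion (17898 to 6067 normalized reads, adjusted p = 0.0008), and in that for knockdown it fell 1.98-fold (13340 to 6743, adjusted p = 0.0472). Igll1, a pro-B cell gene of the surrogate light chain, was high in all 4 groups, with means between 4305 and 5547 normalized reads. The 2 libraries of a deletion group were not alike. C1qb, a macrophage gene, stood at 11.7 and 210 normalized reads in the deeper and shallower control and at 117 and 9.30 in the deeper and shallower Brg1-deleted library, while S100a8, a neutrophil gene, stood at 208 and 13.0 against 0.864 and 134. The summed level of the 8 myeloid markers with recovered reads, of 10 on the list, was 1267 and 1921 normalized reads in controls and 1378 and 859 in the Brg1-deleted libraries. Left out were Lyz2, with means of 3687 in controls and 2431 after deletion, and Mpo, with 2177 and 513. Neither was called (adjusted p = 0.1153 for Mpo, authors' deposited table). With them the 10 means summed to 7458 and 4063, with 1 log2 fold change above 0 and 9 below. Of those 10, Elane, a neutrophil granule protease, fell 6.93-fold after deletion (224 to 32.2, adjusted p = 0.015 in the authors' deposited table), and 0 were called after knockdown. The 5 T cell markers with recovered reads, of 6, summed to 10.7 and 45.0 against 27.6 and 15.1, and the 6 mature B and plasma cell markers, of 7, to 375 and 289 against 370 and 286, from the deeper to the shallower library.

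The mature B cell marker left out of that sum was Ms4a1, which encodes the B cell surface protein CD20. Its means were 599.7 and 3448 normalized reads in control and Brg1-deleted cells, a 5.75-fold difference that was not called (adjusted p = 1.0, authors' deposited table). The controls were far apart, at 98.5 in the deeper and 1101 in the shallower library, and the Brg1-deleted libraries were not recovered for this gene. With Ms4a1, the 7 means summed to 932 and 3776. Of the 7, 6 had a log2 fold change above 0, and 0 were called, that is, had an adjusted p under 0.05. After knockdown Ms4a1 rose 2.76-fold (853 to 2351, adjusted p = 0.0016 in the authors' deposited table), the only one of the 7 called there. Cr2, a complement receptor of mature B cells, stood at 19.5 and 28.0 in controls and 219 and 90.7 after deletion, which did not overlap and was not called (adjusted p = 0.346, authors' deposited table). Of 11 pro-B cell markers 0 were called in either experiment, with 5 above and 6 below a log2 fold change of 0 after deletion and 4 above and 7 below after knockdown. The 4 of them with recovered reads summed to 4638 and 2795 in the deeper and shallower control and to 1154 and 3856 in the Brg1-deleted libraries, which overlapped. Kit, a cytokine receptor of early progenitors, had means of 478 and 151 in the deletion experiment (adjusted p = 0.809) and of 154 and 67.2 in the knockdown experiment (adjusted p = 0.086), both from the authors' deposited table. The part of other cell types in the values that follow was not tested.

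Few of the segments that the locus holds were listed. RefSeq names 183 mouse Ighv genes, 63 of them pseudogenes, together with 20 D segments, 4 J segments and 8 constant-region genes. The 67 V segments of the deletion table include 2 that RefSeq types as pseudogenes, Ighv7-1 and Ighv7-3. The deposited annotation does not type these 2 as pseudogenes, but does so for Ighv13-2. No D segment, no Ighd and no Ighe row was listed in either table, and Igha was listed for deletion only. No listed mean is 0 in either group, so a segment without reads in 1 group is not among those listed, and the listed segments are not all that were transcribed. Both tables together held 69 V segments, 60 of them listed for deletion alone, 7 for both and 2, Ighv1-49 and Ighv1-62-3, for knockdown alone. By order along the chromosome they were divided into 3 sections of 23 segments. The proximal section runs from Ighv5-2 to Ighv9-3 (mm10, chromosome 12, 113578504 to 114141122), the middle section from Ighv7-3 to Ighv1-37 (114153184 to 114896671) and the distal section from Ighv1-39 to Ighv1-85 (114914599 to 116000461). The deletion table listed 23, 23 and 21 of these, and that for knockdown held 2, 3 and 4.

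None of the heavy chain segments passed the test in either experiment. At the authors' adjusted p under 0.05, 0 of 77 members were called after deletion, where 1.47% of all listed genes were, and 0 of 18 after knockdown, where 0.218% were. At an unadjusted p under 0.05 the counts were also 0 of 77 and 0 of 18, where 9.52% and 2.74% of all genes passed. Most members were too shallow for these tests to reach. A mean over both groups under 10 normalized reads was found for 71 of 77 members in the deletion table and 14 of 18 in the knockdown table, and of all genes that low only 0.168% and 0.197% had an unadjusted p under 0.05. A moderated linear model (limma) on the recovered reads of the deletion libraries called 0 of the 60 members it could test, and 0 of all 16749 genes. One of the 60, Ighv5-2, had an unadjusted limma p under 0.05, which 16.7% of all genes had.

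The constant-region gene Ighm encodes the µ chain, the first heavy chain that a B-lineage cell makes, and was by far the most abundant segment in every group. Its mean was 22826 normalized reads in Brg1+/+ controls and 33160 in Brg1-deleted cells. The authors' deposited table gives a log2 fold change of 0.54 (unadjusted p = 0.116, adjusted p = 0.9416). In Rag1-/- cells the means were 21937 with Ctrl-sh and 26040 with Brg1-sh, and the authors' deposited table gives 0.25 (unadjusted p = 0.7137). Ighm stood at rank 15 of all genes by normalized reads in Brg1+/+ controls, 7 in Brg1-deleted cells, 14 in Rag1-/- cells with Ctrl-sh and 7 with Brg1-sh. Its reads per library could not be recovered at this level, so the spread between libraries is unknown. In bulk samples such as these, fewer cells that use a segment and less RNA per cell cannot be told apart.

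Ighg2b, the γ2b constant gene, was the second most abundant. Its mean was 1457 normalized reads in controls and 742 after deletion, with 1041 in the deeper and 443 in the shallower Brg1-deleted library. The control libraries had more than 1 solution and are not given. Without Rag1 its means were 513 with Ctrl-sh and 426 with Brg1-sh. The log2 fold changes in the authors' deposited table were -0.97 after deletion (unadjusted p = 0.4074) and -0.27 after knockdown (unadjusted p = 0.4027). Per exon length, the Ighg2b level was 9.39% of the Ighm level in Brg1+/+ controls, 3.29% in Brg1-deleted cells, 3.44% in Rag1-/- cells with Ctrl-sh and 2.41% with Brg1-sh. The ratio was thus lower in both Brg1-depleted groups than in their own controls, without a test of that difference.

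Ighg2c, the γ2c gene of C57/Bl6 mice, stood at 55.6 and 39.0 normalized reads in the deeper and shallower control and at 36.3 and 17.4 in the deeper and shallower Brg1-deleted library. Both Brg1-deleted libraries lay below both controls, the nearest pair being 36.3 and 39.0. The limma log2 fold change was -0.87 (SE 0.50) with an unadjusted p of 0.1349. In Rag1-/- cells Ighg2c stood at 3.38, 6.60 and 6.83 normalized reads with Ctrl-sh and 3.89, 3.50 and 7.26 with Brg1-sh, and the groups overlapped. The experiments were normalized separately and differ in more than Rag1, so their levels stand side by side without a test.

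The remaining constant genes rested on a few reads per library. Ighg1 had 8 and 3 reads in controls and 8 and 2 in Brg1-deleted libraries, which overlapped. Ighg3 had 4 and 8 reads against 10 and 10, with both Brg1-deleted libraries above both controls after normalization. Igha, the α gene, had 10 reads in the shallower control, 5 in the deeper Brg1-deleted library and 0 in the other two. Those are the libraries with high C1qb. The Rag1-/- cells had 3 Ighg1 reads over the Ctrl-sh libraries and 1 over the Brg1-sh libraries, and 2 Ighg3 reads in each group.

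**Figure D1:**
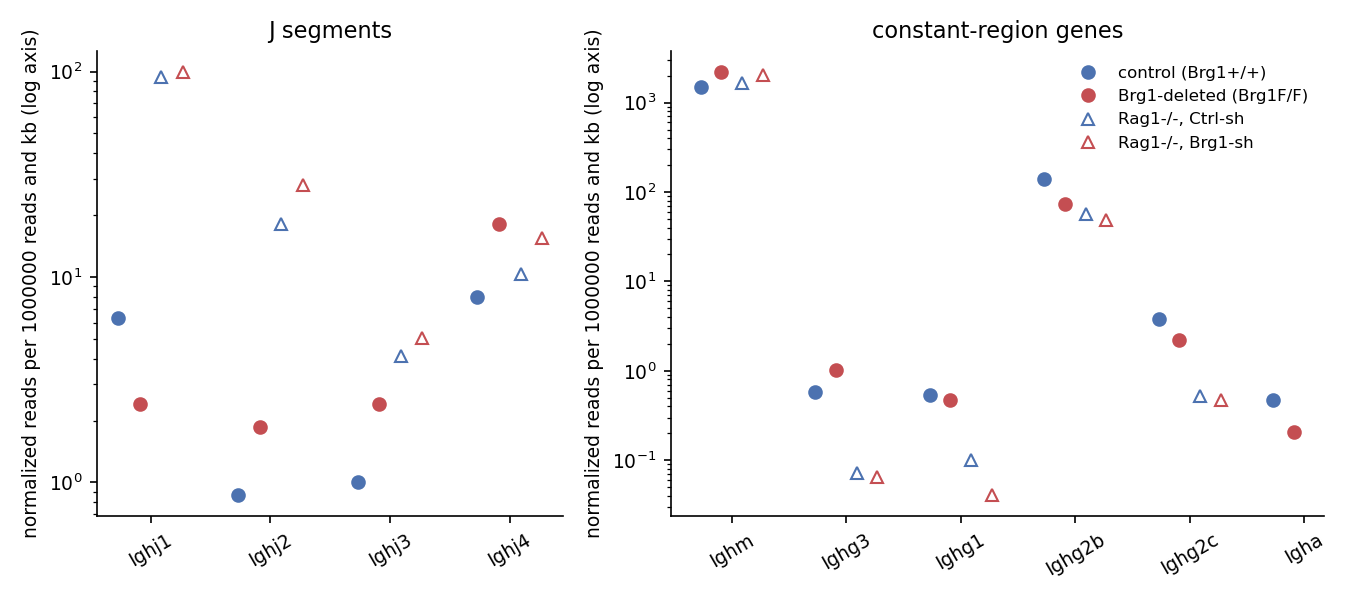
Level of the J segments (left) and constant-region genes (right) in the 4 groups, as the group mean in normalized reads per 1000000 reads and kilobase of exon on a log axis. Filled circles are the deletion experiment and open triangles the knockdown in Rag1-/- cells; Ighj1 stands at 94.4 and 99.7 in the Rag1-/- groups and at 6.33 and 2.42 in the others, and Ighm is above every other constant gene in all 4 groups.

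The J segments, short exons of 48 to 54 bases to which D segments join, showed a different order in the Rag1-/- cells. In normalized reads per 1000000 reads and kilobase, Ighj1, the J segment nearest to the D cluster, stood at 94.4 with Ctrl-sh and 99.7 with Brg1-sh. Ighj2 followed at 18.0 and 28.0, Ighj4, the J segment nearest to Ighm, at 10.4 and 15.4, and Ighj3 at 4.14 and 5.03. In the recombination-competent cells Ighj4 had the highest mean, at 7.96 in controls and 18.0 after Brg1 deletion, with Ighj1 at 6.33 and 2.42. The order in controls is uncertain, with 4 and 5 Ighj4 reads against 2 and 5 Ighj1 reads in the deeper and shallower library. All J segments together had 7 and 11 reads in the controls and 12 and 14 in the Brg1-deleted libraries. Ighj1 made up 74.3% and 67.2% of the summed J signal in the Rag1-/- groups, against 39.0% and 9.7% in Brg1+/+ and Brg1-deleted cells. The tables were normalized separately, so these levels stand side by side without a test.

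No J segment passed the test for Brg1. Ighj4 had 3.90 and 5.00 normalized reads in the deeper and shallower control and 6.91 and 12.8 in the Brg1-deleted libraries, which both lay above the controls. Its limma log2 fold change was 1.01 (SE 0.67, unadjusted p = 0.1852). Ighj1 had 2 and 5 reads in controls and 3 and 0 in Brg1-deleted libraries, and the groups overlapped. The remaining J segments had at most 2 reads in any library of the deletion experiment. In Rag1-/- cells Ighj1 had a mean of 44.4 normalized reads with Ctrl-sh and 45.5 with Brg1-sh, a log2 fold change of 0.03 in the authors' deposited table (unadjusted p = 0.9431). Ighj2 stood at 10.98, 4.71 and 10.2 with Ctrl-sh and at 14.8, 14.9 and 9.33 with Brg1-sh, from the deepest to the shallowest library. Ighj4 stood at 5.07, 4.71 and 5.12 against 12.5, 1.75 and 7.26, and Ighj3 at 0, 1.88 and 3.41 against 6.23, 0 and 0. The groups overlapped for all 3 of these.

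The V segments of the recombination-competent cells were led by those nearest to the D cluster. Over the 67 listed segments there were 350 reads in controls and 494 after deletion, with a median of 6 reads per segment over all 4 libraries and a range of 2 to 180. Only 13 segments had 10 or more reads in either group. V segments of a family are close in sequence, so the division of reads between neighbours of a family depends on the authors' counting and is uncertain. Ighv5-2, the functional V segment nearest to the D cluster (mm10, chromosome 12, 113578504 to 113578990), alone carried 17.4% of the summed V signal in controls and 23.9% after deletion. The 10 leading segments together carried 49.7% and 58.9%, and 7 of these 10 in controls and 8 in Brg1-deleted cells belong to the proximal section.

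**Figure D2:**
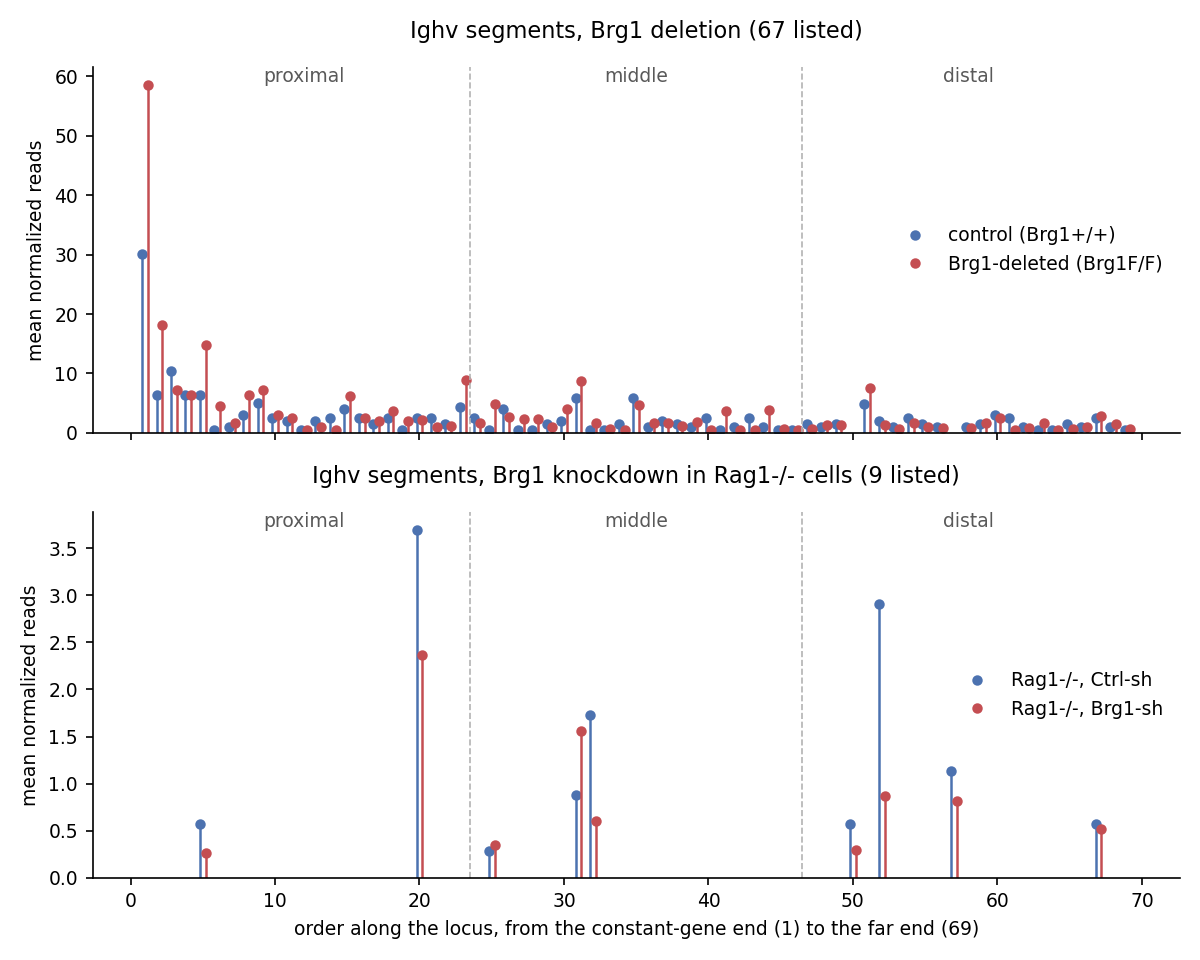
Mean normalized reads of each listed V segment in the deletion experiment (upper panel, 67 segments) and the knockdown experiment (lower panel, 9 segments), in their order along the chromosome from the D and constant end; dashed lines divide the proximal, middle and distal sections. Ighv5-2, the first segment, reaches 30.1 in controls and 58.6 after Brg1 deletion, while no V segment exceeds 3.70 in Rag1-/- cells.

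Ighv5-2 had 30 and 31 reads in the deeper and shallower control and 71 and 48 in the Brg1-deleted libraries, or 29.3 and 31.0 against 61.3 and 55.8 normalized reads. The controls were close to each other and both Brg1-deleted libraries lay above them. The limma log2 fold change was 0.95 (SE 0.33, unadjusted p = 0.0329, adjusted p = 0.253), and leaving out each library in turn gave log2 ratios of means, with 0.5 added, of 0.88 to 1.01. The authors' deposited table gives 0.96 with an unadjusted p of 0.1007 and an adjusted p of 0.8935.

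Ighv2-2, its listed neighbour, had 8.78 and 4.00 normalized reads in controls and 15.6 and 20.9 after deletion, so that the groups did not overlap. Its limma log2 fold change was 1.52 (SE 0.62, unadjusted p = 0.0555). Ighv5-4, next in the order, had 7.80 and 13.0 in controls against 5.18 and 9.30, and overlapped. Ighv2-3 was level, at 6.83 and 6.00 against 6.91 and 5.81. Ighv5-6 had 10.7 and 2.00 against 12.1 and 17.4 and Ighv9-3, the last of the proximal section, 6.83 and 2.00 against 9.50 and 8.14, both without overlap. Neighbours of 1 family differed in sign: Ighv5-2 and Ighv5-4, both of VH5, had fitted log2 fold changes of 0.95 and -0.51.

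Of the other segments among the 10 highest of a group, Ighv2-5 and Ighv5-12 are proximal, Ighv6-3 and Ighv10-1 lie in the middle section and Ighv1-53 in the distal one. Ighv5-12 had 2.93 and 7.00 normalized reads in controls against 1.73 and 12.8, Ighv6-3 had 4.88 and 7.00 against 13.0 and 4.65, and Ighv1-53 had 6.83 and 3.00 against 10.4 and 4.65. Ighv2-5 had 3.90 and 2.00 against 3.46 and 9.30. All 4 overlapped. Ighv10-1 had 5.85 and 6.00 in controls against 3.46 and 5.81, just below them. The high Brg1-deleted library was the deeper one for Ighv6-3 and Ighv1-53 and the shallower one for Ighv5-12 and Ighv2-5.

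Over all 67 segments, both Brg1-deleted libraries lay above both controls for 14 and below both for 7, or 20.9% and 10.4%, and 46 overlapped. Among all genes with recovered reads, 23.0% lay above and 22.1% below, and among those with a mean under 10 normalized reads 14.6% and 13.6%. By section, 6 of 23 proximal segments lay above and 1 below, 7 of 23 middle segments lay above and 5 below, and 1 of 21 distal segments lay above and 1 below. The median log2 fold change of the 67 was 0.07, with 35 above 0, beside a median of 0.00 with 49.9% above 0 for all listed genes. It was 0.45 in the proximal section with 15 of 23 above 0, 0.25 in the middle with 12 of 23, and -0.19 in the distal section with 8 of 21. These medians weigh segments with 2 reads like those with 180. With each library left out in turn, and 0.5 added to the means, that of the 67 lay between -0.07 and 0.34.

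**Figure D3:**
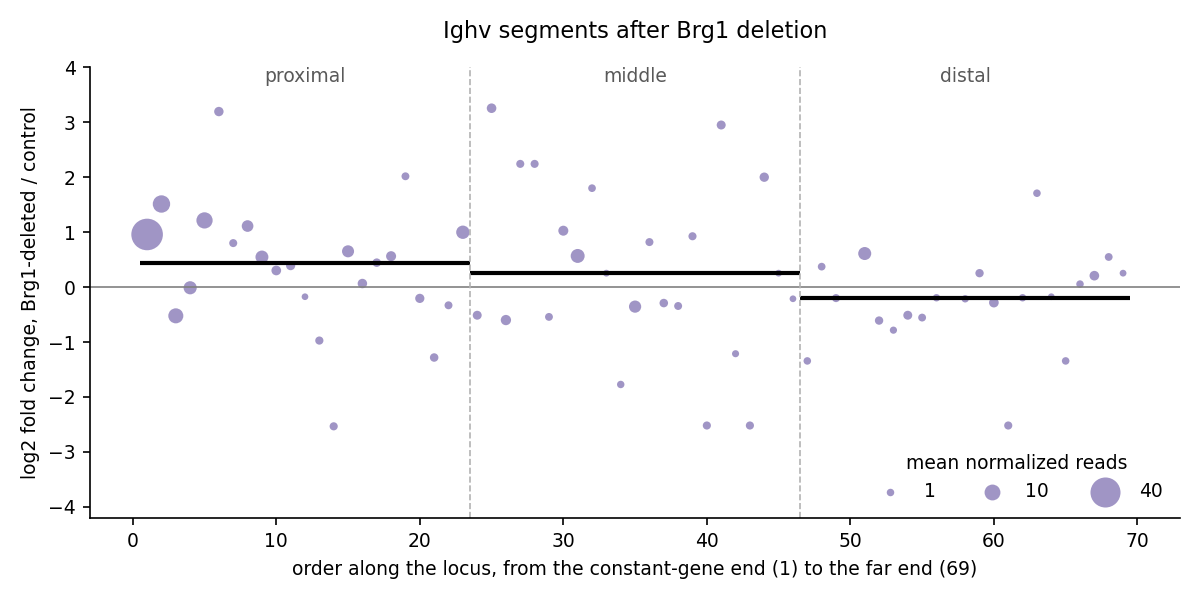
Log2 fold change (Brg1-deleted over control, from the authors' deposited table) of the 67 listed V segments against their order along the chromosome; the area of a point grows with the segment's mean normalized reads and black lines are the medians of the sections. The medians step from 0.45 through 0.25 to -0.19, while single segments with few reads range from -2.53 to 3.26 and none passed the test.

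Summed over segments, the V signal was 175 and 171 normalized reads in controls and 246 and 243 after deletion, a mean of 173 ± 2.4 against 245 ± 2.2 (SD, n = 2 each) and a 1.42-fold difference. These sums rested on 179 and 171 reads in controls and 285 and 209 after deletion. Counting error at such read numbers is larger than either SD, so the SDs do not measure the precision of the sums. The libraries of a group were close in this sum. They differed widely in C1qb and S100a8, and the part of other cells in the sum was not tested. Divided by the depth of the library, the sums per 1000000 reads were 16.9 and 16.5 in controls against 24.4 and 24.0. With 2 libraries a group no permutation over libraries can pass the threshold, and no test is given for a sum over chosen members.

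The difference lay in the proximal and middle sections. The proximal sum was 102 and 98.1 normalized reads in controls against 158 and 166, or 1.62-fold, and the middle sum 41.0 and 38.0 against 49.2 and 53.5, or 1.30-fold, without overlap in either. In the distal section the sums were 31.2 and 35.0 against 38.9 and 23.3, which overlapped around a ratio of 0.94. The deeper Brg1-deleted library lay above and the shallower one below both controls. Without the leading segment, Ighv5-2, the log2 ratio of the proximal sums was 0.56 in place of 0.69.

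**Figure D4:**
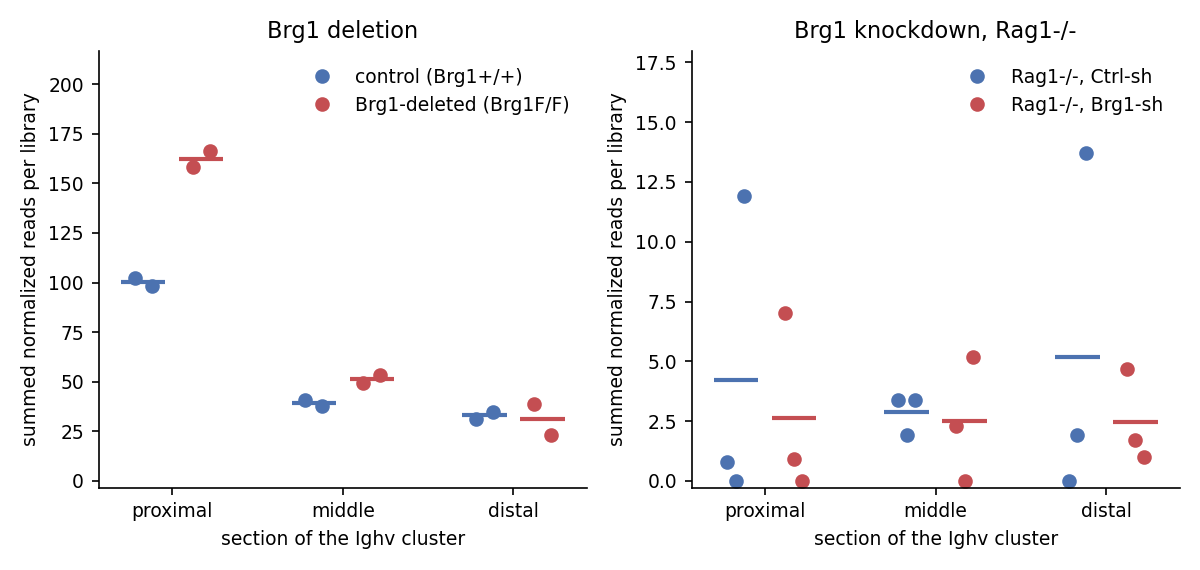
Summed normalized reads of the listed V segments of each section in every library (points) with the group mean (bars), for deletion (left, 2 libraries per group) and knockdown in Rag1-/- cells (right, 3 per group). Proximal sums of 158 and 166 after Brg1 deletion lie above the control sums of 102 and 98.1, distal sums overlap, and on the right all sections overlap and 1 Ctrl-sh library is the highest in the proximal and distal sections.

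As shares of the V reads, the distal section held 17.9% (95% Wilson interval 13.0 to 24.1%) and 20.5% (15.1 to 27.1%) in the deeper and shallower control and 15.8% (12.0 to 20.5%) and 9.6% (6.3 to 14.3%) in the Brg1-deleted libraries. The proximal section held 58.7% (51.3 to 65.6%) and 57.3% (49.8 to 64.5%) against 64.2% (58.5 to 69.6%) and 68.4% (61.8 to 74.3%). These intervals cover counting error only. Those of the deeper Brg1-deleted library overlap those of both controls, and that of the distal share in the shallower one lies below the interval of the shallower control alone.

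The segments were also grouped by sequence family. VH2 and VH5, the families that fill most of the proximal section, had a sum of 83.9 and 86.1 normalized reads in controls against 137 and 145, a 1.66-fold difference without overlap. VH1 and VH8, which fill the distal section and part of the middle, had 43.9 and 45.0 against 51.8 and 37.2, a ratio of 1.00 with overlap. The other families together had 48 and 40 reads against 66 and 52, or 1.35-fold by normalized reads without overlap.

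In Rag1-/- cells V reads were near the limit of detection, with 26 reads in all Ctrl-sh libraries and 27 in all Brg1-sh libraries over 9 segments. From the deepest to the shallowest library there were 5, 4 and 17 reads with Ctrl-sh and 18, 3 and 6 with Brg1-sh, or 4.2, 3.8 and 29.0 against 14.0, 2.6 and 6.2 normalized reads. The groups overlapped, and most reads of a group came from 1 library, for Ctrl-sh the shallowest with 5201377 reads. Without that library the log2 ratio of the sums, -0.70 over all libraries, was 0.93. The same Ctrl-sh library had reads of 8 of the 9 segments, and the deepest Brg1-sh library of 7.

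Ighv14-2 led in both Rag1-/- groups, with 1, 0 and 6 reads against 8, 1 and 0. Ighv8-6 followed with Ctrl-sh, with 0, 2 and 4 reads against 2, 0 and 1, and Ighv6-3 with Brg1-sh, with 0, 1 and 1 reads against 2, 0 and 3. Ighv6-4 had 3, 1 and 1 against 1, 0 and 1. Ighv1-62-3 had 0, 0 and 2 against 2, 1 and 0. Ighv5-6, Ighv1-49, Ighv1-82 and Ighv14-4 had 1 or 2 reads per group. Of the 9 segments, 0 had libraries apart in either direction, where 4.17% of all genes with recovered reads lay above and 2.70% below. Ighv5-2, the leading segment of the recombination-competent cells, was not listed.

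The distal section held 42.0% of the summed V signal in Rag1-/- cells with Ctrl-sh and 32.6% with Brg1-sh, with library values from 0 to 50.0% and from 16.7 to 66.7%, too wide to place either group against the recombination-competent cells. Set against Ighm within each group, per exon length, the summed V signal came to 3.27% in Brg1+/+ controls and 3.18% in Brg1-deleted cells. It came to 0.258% and 0.131% in Rag1-/- cells with Ctrl-sh and Brg1-sh. The 2 tables list different V segments, so only values of 1 experiment compare directly. These proportions have no spread, since the Ighm reads of each library were not recovered, and their differences were not tested.

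Genes that act on the locus were counted from lists. Of 16 genes of V(D)J recombination, 0 were called in either experiment, beside 1.47% of all listed genes after deletion and 0.218% after knockdown. Dntt, the terminal transferase that adds bases at the joins, had the largest difference, with 1560 and 986 normalized reads in controls against 81.2 and 592 after deletion, without overlap. In the authors' deposited table its fold was 3.78 and its adjusted p 0.163. The lowest adjusted p of this list belonged to Polm, a polymerase of end joining, at 0.1321 in the authors' deposited table, with means of 272 and 579. After Dntt came Xrcc5, with 327 and 291 normalized reads in controls against 165 and 114, without overlap (adjusted p = 0.1736, authors' deposited table). Hmgb2 followed, with means of 9825 and 5902 (adjusted p = 0.4637, authors' deposited table). Of the 16, 9 lay above and 7 below a log2 fold change of 0 after deletion. Rag1, a subunit of the recombinase, had means of 2566 and 2998 in the deletion experiment, and the authors' deposited table gives an adjusted p of 1.0.

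Of 15 genes of locus contraction and architecture, 1 was called after deletion and 0 after knockdown, beside 1.47% and 0.218% of all listed genes. Wapl, which releases cohesin from chromatin and whose repression by Pax5 is known to extend loops across the V cluster, rose 2.46-fold after deletion (381 to 937 normalized reads, adjusted p = 0.027 in the authors' deposited table). After knockdown Wapl stood at 352 and 599.7 (adjusted p = 1.0, authors' deposited table). Pax5 itself stood at 4933 and 6037 and Yy1 at 1726 and 1672 in the deletion experiment, and neither was called. Of 21 promoter and enhancer regulators, 1 was called higher and 1 lower after deletion, and 0 higher and 1 lower after knockdown. The shares of all listed genes were again 1.47% and 0.218%. The gene called lower was Smarca4 in both, which is the gene deleted or knocked down, so that call follows from the design. Irf8, a transcription factor of B-lineage cells, rose 2.42-fold after deletion (adjusted p = 0.0153 in the authors' deposited table). Ebf1 stood at 7809 and 7690.

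Of 9 partners of the µ chain in the pre-B receptor, 1 was called after deletion and 0 after knockdown. For this and the next 2 lists, the shares of all listed genes were again 1.47% and 0.218%. Cd79b, a signalling chain of the receptor, rose from 8045 to 20542 normalized reads (2.55-fold, adjusted p = 0.0106 in the authors' deposited table). Syk stood at 9368 and 15246 and was not called (adjusted p = 0.471, authors' deposited table). Igll1, of the surrogate light chain, stood at 5204 and 4305 and Vpreb1 at 3695 and 2391, neither called. Of these 9 partners, 6 lay above and 3 below a log2 fold change of 0 after deletion. Of 9 genes of µ chain processing and secretion, Mzb1, a chaperone cofactor of µ chain assembly, fell 2.21-fold after deletion (1747 to 792, adjusted p = 0.0464 in the authors' deposited table), and 0 were called after knockdown. Xbp1, a regulator of secretion, had an adjusted p of 0.0505 with means of 1684 and 683, also from the authors' deposited table. Among the genes beside or inside the locus, 0 of 11 listed for deletion and 0 of 12 for knockdown were called.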

How the data were processed

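RNA-seq gave 10 libraries in 4 groups, assigned from sample titles. The other 16 samples of the series were not analysed here. CASAVA, RSEM and DESeq and the mm10 build are named, without versions or roles, in the submitters' processing notes. Per the file headers, the deposited signal is 1 mean per group of reads over size factors, with the authors' log2 fold change, a signed fold score, p-values, adjusted p-values and exon length. The authors' adjusted p under 0.05 was the test, as no values per sample are given, so the planned count model was not run.

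Whole reads per library were recovered, because each mean is a sum of whole reads times 1 fixed step per library (tolerance 6e-05). This gave 1 solution for 18327 of 19404 genes for deletion (94.4%, searched to a mean of 3000) and 7929 of 19719 for knockdown (40.2%, searched to a mean of 60). No searched gene lacked a solution. Libraries of a deletion group differed beyond sampling noise (mean chi-square per gene of 20.6 and 29.5). limma 3.58.1 in R 4.3.3 was run for deletion on log2 of reads plus 0.5 over size factor, with a trend, for genes with 1 solution and a mean of at least 1. Recovery and limma were run on simulated data. The simulated spread between libraries was set beforehand and not fitted, so that run does not show how limma performs on these libraries. The rest was done in Python 3.11.15 with pandas 2.3.3, matplotlib 3.10.9, numpy 2.4.6 and scipy 1.17.1.

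Members, lists and markers were chosen with earlier results of these data known. Named were all constant and J genes, the 10 V segments highest in each group, the 6 largest changes each way at a mean of at least 10, Ighv5-2, Adam6a, Adam6b and up to 4 genes per regulator list by adjusted p. Rag1, Pax5, Yy1, Ebf1, Igll1 and Vpreb1 were named beside these for their known roles. RefSeq names come from GRCm38.p6. The sections were set by equal numbers of segments.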

Additional observations from a re-analysis of the deposited data

How the results depend on the processing

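The counts of called segments, 0 in both experiments, were also 0 at an adjusted p of 0.1, at an unadjusted p of 0.05 and with p adjusted over the listed genes. A minimum mean of 10 or 1, a 1.5-fold minimum or leaving out confounded rows can only lower a count, so 0 was certain. No member was marked confounded in either experiment. For deletion limma called 0 members, but also 0 of all 16749 genes it tested, and 1 member at an unadjusted p under 0.05. The median V log2 fold change after deletion, 0.07, was 1.21 over the 3 segments with a mean of at least 10. It was -0.07 to 0.34 with a library left out and 0.5 added to the means, which the 0.07 does not have. For knockdown the median of -0.64 ranged from -1.10 to 0.66 with a library left out and the same 0.5 added. No V segment reached a mean of 10 there. Log2 ratios of summed V signal after deletion with a library left out were 0.49 to 0.52 for all, 0.66 to 0.73 proximal, 0.32 to 0.44 middle and -0.51 to 0.23 distal. The range for all is narrow because the sums of a group were close, and it does not measure precision. Without Ighv5-2 the log2 ratios were 0.38 for all and 0.56 proximal. For knockdown, leaving out a library gave -1.48 to 0.93 for all, -3.29 to 2.64 proximal, -1.31 to 0.38 middle and -1.89 to 1.4 distal. The distal share of the V signal was 19.2%, 12.7%, 42.0% and 32.6% in Brg1+/+, Brg1-deleted, Ctrl-sh and Brg1-sh cells. As VH1 and VH8 against VH2 and VH5 it was, in the same order, 34.4%, 24.0%, 90.1% and 90.5%. In Rag1-/- cells VH2 and VH5 were Ighv5-6 alone, with 1 read per group, against 4 listed segments of VH1 and VH8. The distal share was 23.2% and 16.7% in the first 2 groups without Ighv5-2, and 59.9% and 47.3% in the last 2 without Ighv14-2. With a library left out it was 17.9 to 20.5%, 9.6 to 15.8%, 23.6 to 47.4% and 28.2 to 38.6%, in the order above. Among named segments with recovered reads, 7 of 19 for deletion and 10 of 15 for knockdown changed sign when a library was left out, with 0.5 added to the means. After deletion these were Igha (-3.46 to 2.41), Ighg1 (-1.06 to 0.55), Ighj3 (-1.0 to 1.73), Ighv1-53 (-0.07 to 1.19), Ighv2-3 (-0.13 to 0.10), Ighv5-12 (-1.29 to 1.28) and Ighv6-3 (-0.32 to 1.06). After knockdown they were Ighg3 (-0.46 to 1.07), Ighj3 (-2.18 to 0.84), Ighj4 (-0.13 to 0.92), Ighv5-6 (-1.10 to 0.60), Ighv14-2 (-2.16 to 1.64), Ighv14-4 (-0.64 to 0.76), Ighv6-3 (-0.11 to 1.08), Ighv1-49 (-1.10 to 0.66), Ighv1-62-3 (-0.81 to 1.39) and Ighv1-82 (-1.10 to 1.03). The cause was not tested. The sums, the unadjusted limma count and the 0.5 added to means were chosen after seeing the data. limma was not run for knockdown, where too few genes had 1 solution. No paired analysis was possible because the recovered libraries carry no replicate numbers.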

Other observations

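Some listed rows lie inside the heavy chain locus without being heavy chain segments, and those named here were chosen after their values were seen, except Adam6a and Adam6b. Between Ighm and Ighj4, the deletion table lists 3 short rows that its annotation types as miRNA, of 70 to 78 bases (mm10, chromosome 12). Gm22175 (113425150 to 113425227) stood at 195 and 83.1 normalized reads in the deeper and shallower control and at 107 and 310 in the deeper and shallower Brg1-deleted library. Gm24022 (113424749 to 113424818) stood at 63.4 and 14.0 against 34.6 and 108, and Gm25747 (113424645 to 113424722) at 69.2 and 15.0 against 31.1 and 106. All 3 overlapped between groups, and in each group the library that was high was the one with high S100a8 and low C1qb. In Rag1-/- cells Gm22175 had means of 167 with Ctrl-sh and 189 with Brg1-sh. None of the 3 was called in either experiment.

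Adam6b, a testis-associated metalloprotease gene between the D cluster and the V segments, stood at 38.0 and 8.01 normalized reads in controls and at 111 and 43.0 after Brg1 deletion, so that the groups did not overlap. In the authors' deposited table its log2 fold change was 1.74 with an unadjusted p of 0.1157 and an adjusted p of 0.9413. In Rag1-/- cells its means were 19.8 and 19.2. Adam6a, between Adam6b and Ighv5-2, had 3.90 and 1.00 normalized reads in controls against 6.91 and 0 after deletion, which overlapped.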
